A study of Caenorhabditis elegans with 2 samples.

Results

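Nuclear hormone receptor genes of Caenorhabditis elegans were examined in a map of the genomic regions recovered with NHR-28, itself a member of the family. The members were the protein-coding genes with a symbol of nhr- and a number, together with daf-12, odr-7, unc-55, fax-1 and sex-1, in the WBcel235 annotation. The rule uses the symbol alone, although the family was picked for description with earlier results of these data known. There were 274 of them, 269 by the nhr symbol and 5 by name, among 19985 protein-coding genes. A candidate region belonged to a member when its summit lay inside the gene or within 2 kb of the gene's start, and a region could belong to several members. Chromatin immunoprecipitation followed by sequencing (ChIP-seq) had been carried out on whole L1 larvae, the first larval stage, of both sexes pooled. The strain, OP317, has the genotype unc-119(ed3) III; wgIs317, in which wgIs317 is an insertion that targets nhr-28. The tagged protein is labelled eGFP-nhr-28, and the genotype label lists no change of the resident nhr-28 gene. Both biological replicates come from this 1 strain and stage, and the labels name no other condition. The antibody label reads nhr-28, while the description names the eGFP fusion. Every value below therefore describes where regions lay and how they ranked in these animals.

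Proteins of this family bind DNA through paired zinc fingers and regulate transcription, and many respond to a small lipophilic ligand such as a steroid or fatty acid. Caenorhabditis elegans carries a much larger set of these genes than insects or vertebrates. Most of the additional members are thought to descend from an ancestor like HNF4, a vertebrate receptor of liver and gut, and many of them stand in arrays on chromosome V. A smaller set has clear relatives in flies and mammals and includes regulators of moulting, dauer formation, sex determination and neuron identity. They often bind short elements such as AGGTCA.

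The receptor genes with a peak in the thresholded list, the authors' final list of 159 peaks, are shown first by sequence, because these are the members' regions of highest signal. Each of the 5 lines gives the 200 bp of WBcel235 centred on the summit, plus strand, 5′ to 3′. The windows are chrV:1627331-1627530 for nhr-237, chrV:15880803-15881002 for nhr-84, chrV:1743565-1743764 for nhr-256, chrIV:1624487-1624686 for nhr-87 and chrII:9603447-9603646 for nhr-19. Capitals mark matches, on either strand, to any of 4 short motifs. The element AGGTCA is the classical receptor motif. The element AGTTCA is a variant of it. The element GGGTCA is another variant. The repeat GAGAGA was searched as a motif outside the family.
nhr-237: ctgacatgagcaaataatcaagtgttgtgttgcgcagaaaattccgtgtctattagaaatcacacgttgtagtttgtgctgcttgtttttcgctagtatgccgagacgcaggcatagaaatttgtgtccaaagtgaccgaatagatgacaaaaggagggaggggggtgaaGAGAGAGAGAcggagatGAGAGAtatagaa
nhr-84: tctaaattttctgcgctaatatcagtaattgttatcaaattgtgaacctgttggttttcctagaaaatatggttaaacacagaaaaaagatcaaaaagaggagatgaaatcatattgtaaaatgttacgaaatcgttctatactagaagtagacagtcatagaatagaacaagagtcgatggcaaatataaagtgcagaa
nhr-256: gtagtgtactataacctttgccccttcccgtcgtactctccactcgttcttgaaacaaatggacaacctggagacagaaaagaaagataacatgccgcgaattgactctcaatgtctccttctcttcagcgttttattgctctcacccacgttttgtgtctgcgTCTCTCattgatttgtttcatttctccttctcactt
nhr-87: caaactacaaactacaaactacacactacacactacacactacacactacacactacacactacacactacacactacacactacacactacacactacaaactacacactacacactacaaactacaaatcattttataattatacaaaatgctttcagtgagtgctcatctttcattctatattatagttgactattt
nhr-19: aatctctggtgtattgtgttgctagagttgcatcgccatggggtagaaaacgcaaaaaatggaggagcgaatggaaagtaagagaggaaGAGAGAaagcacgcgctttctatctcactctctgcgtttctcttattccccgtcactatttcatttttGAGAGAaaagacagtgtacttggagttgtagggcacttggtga

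All capitals in these windows come from GAGAGA. It matched 4 times in the nhr-237 window, with matches that overlap each other, 2 times in that of nhr-19 and 1 time in that of nhr-256. None of the 5 windows held one of the 3 receptor elements. The nhr-87 window differs from the others. From its base 18, counted from 1 at the left end, 83 bases follow a strict 7-base period, which makes it a tandem repeat. Of the 492 member regions it was the only one with a periodic stretch of at least 40 bases, against 63 of 29975 nuclear candidate regions (0.210%). Periods of 2 to 20 bases were searched, and this search was added after the sequence had been seen. How reads from this repeat were placed was not tested.

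Signal at these 5 genes was high in both replicates, whose ranks ran from 23 to 329 of 30000 regions. The thresholded list was made by the irreproducible discovery rate, which favours regions of consistent high rank. High ranks in both replicates were therefore partly built into the choice of these genes. Rank 1 is the highest signal of a list, and the signal is the authors' own value for a region, set relative to a control. The peak of nhr-237 lay on V from 1627266 to 1627595, with its summit 611 bp upstream of the start. Its signal was 120.7 in the pooled list, made from both replicates, 60.9 in replicate 1 and 59.3 in replicate 2. It ranked 24 in the pooled list, 29 in replicate 1 and 23 in replicate 2, so the replicates placed it almost alike. The peak of nhr-84 on V from 15880738 to 15881067 lay 1295 bp upstream, with pooled signal 76.002. Its signal was 44.96 in replicate 1 (rank 53) and 29.9 in replicate 2 (rank 73). That of nhr-256 on V from 1743500 to 1743829 was the closest of the 5 to a start, 106 bp upstream. Its pooled signal was 64.04, with 29.9 in replicate 1 (rank 171) and 28.1 in replicate 2 (rank 96).

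The remaining peaks of the thresholded list at members were intronic. The tandem-repeat peak of nhr-87 on IV from 1624422 to 1624751 lay 558 bp downstream of the start and had pooled signal 53.9. Its signal was 26.1 in replicate 1 (rank 329) and 27.8 in replicate 2 (rank 97). The peak of nhr-19 on II from 9603382 to 9603711 lay 1979 bp downstream, with pooled signal 50.6. Its signal was 29.0 in replicate 1 (rank 198) and 23.7 in replicate 2 (rank 204). For each of the 5 peaks the start nearest to the summit among protein-coding genes was that of the member itself. No specific role is given here for these receptors.

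The 5 genes are 1.82% of the 274 members (exact 95% interval 0.595 to 4.21%). Among all 19973 nuclear protein-coding genes, the same rule gave 169 genes, or 0.846%. With 5 genes the share is imprecise, and the interval includes values near the background. The intervals here cover counting error over genes only, and genes are not replicates of the experiment.

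Regions among the highest 1000 of the pooled list, the thresholded peaks included, lay at 30 members (10.9%, 7.51 to 15.3%). The share of all nuclear protein-coding genes was 5.58%. The pooled list has no tied signals, and its region of rank 1000 had signal 32.1. In the list of replicate 1 alone, 35 members (12.8%, 9.06 to 17.3%) had a top 1000 region, against 5.58% of all genes. In that of replicate 2 alone, 25 members did (9.12%, 5.99 to 13.2%), against 5.16%. The members' share was thus above the background in the pooled list and in each replicate list. Members with a top 1000 region in both replicate lists numbered 13 (4.74%, 2.55 to 7.98%), against 1.47%.

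The searched length was only slightly larger at members than at other genes, with a median of 4.32 kb a gene against 4.03 kb over all nuclear genes. Counted per length, the joint territory of the members held 21.1 distinct top 1000 regions per Mb in the pooled list, against 9.29 over the territory of all nuclear genes. Replicate 1 gave 24.6 per Mb at members and 9.53 at all genes, and replicate 2 gave 19.7 and 9.25. Over all ranks the gap was narrower, with 345.3 regions per Mb at members against 291.3. Of the 274 members, 198 had at least 1 region of the pooled list (72.3%, 66.6 to 77.5%), against 67.1% of all genes. The other 76 had none. The 198 genes held 492 distinct regions, of which 30 belonged to more than 1 member. The best-ranked region of a member had a median rank of 6296 over these 198 genes, against 8806 over all nuclear genes with a region.

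**Figure D1:**
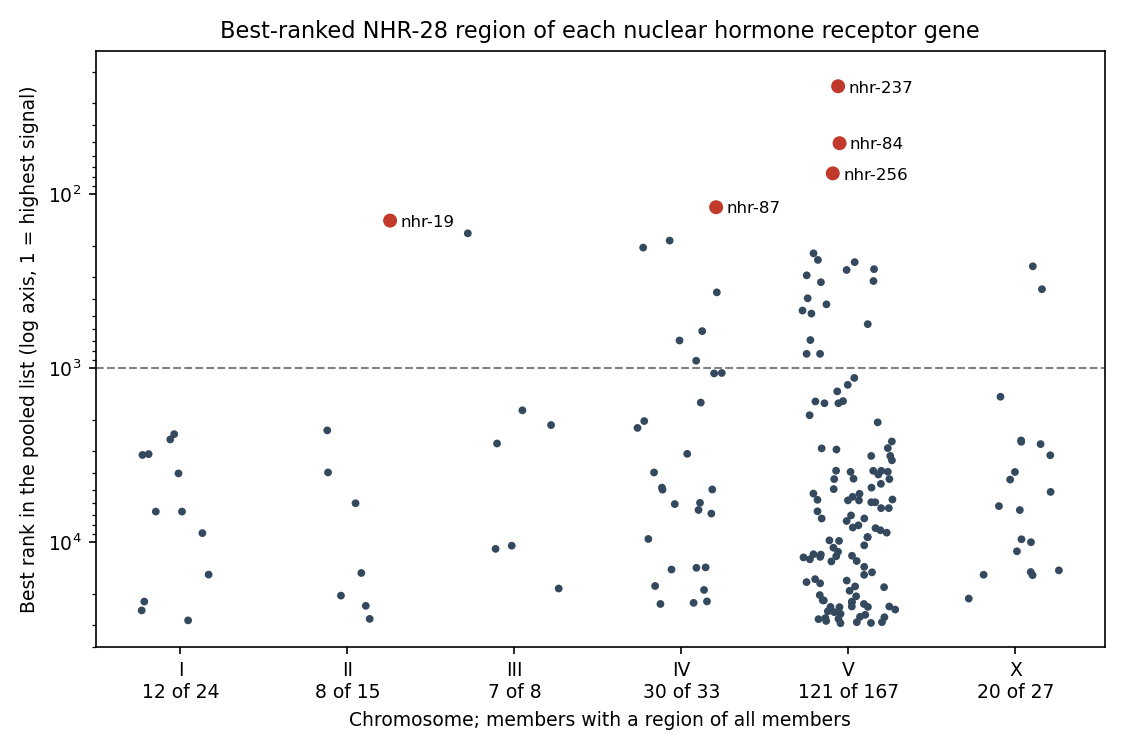
Each point is 1 receptor gene with a region, placed by chromosome and by the rank of its best region in the pooled list (log axis, rank 1 at the top); points are spread sideways at random within a chromosome, red points have a thresholded peak, and the dashed line is rank 1000. The 30 genes above the line lie on II, III, IV, V and X, and none of the 24 members on I is among them.

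The member regions of the pooled top 1000, the thresholded peaks included, were placed relative to gene starts. The rule takes only summits inside a gene or within 2 kb of its start, so closeness to a start is partly built in. The 31 pairs of a member and a top 1000 region comprise 30 distinct regions, since 1 region upstream of both nhr-42 and nhr-107 counts for each. In 29 of the 31 pairs the nearest protein-coding start was that of the member, and in 0 pairs did the summit lie inside another protein-coding gene. Of the pairs, 19 were upstream and 10 in introns, against 743 and 241 top 1000 pairs over all nuclear genes. The upstream summits of members lay at a median of 212 bp, 11 of them within 300 bp. Such distances were not measured over all genes. The highest of the regions outside the thresholded list was that of nhr-10, which acts with nhr-68 in the response to propionate when vitamin B12 is low. It lay on III from 7116480 to 7116809, 1207 bp upstream, with pooled signal 47.8 and rank 168. Its signal was 19.1 in replicate 1 (rank 1767) and 27.5 in replicate 2 (rank 109), so replicate 2 placed it far higher.

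Similar values were found at several further genes. The region of nhr-142 on V from 5790600 to 5790929, 212 bp upstream, had pooled signal 44.7. It was high in both replicates, with signal 31.5 (rank 145) and 20.2 (rank 502). The region of nhr-47 on V from 5505032 to 5505361 lay 56 bp upstream of its start, with pooled signal 43.5. Its replicate signals were 19.3 (rank 1625) and 18.2 (rank 874), and the annotated noncoding RNA genes C24G6.10 and C24G6.12 lie within 200 bp of its summit. The region of nhr-3 on X from 14557901 to 14558230, 438 bp upstream, had pooled signal 42.7. Its ranks of 209 in replicate 1 and 1435 in replicate 2 differ more than those of nhr-142, and the noncoding RNA gene H01A20.5 lies within 200 bp of its summit. Among the top 1000 regions of members, that of nhr-274 also has one, Y41D4B.25.

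Members with a region inside the gene included nhr-182 and nhr-50. The region of nhr-182 on V from 2259712 to 2260041 lay in an intron 50 bp from the start, with pooled signal 42.5 and replicate signals of 21.5 (rank 899) and 20.2 (rank 510). That of nhr-50 on V from 15999987 to 16000316 lay in the 5' UTR 479 bp from the start, with pooled signal 40.9 and replicate signals of 21.5 (rank 918) and 20.2 (rank 499). Both genes were thus close in rank between replicates. The lowest member region inside the top 1000 was intronic in nhr-34, at rank 907 and signal 32.6, and the first outside was that of nhr-146, at rank 1067 and signal 31.7.

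The replicates shared some of these places and differed at others. Of the 30 distinct member regions in the pooled top 1000, 29 overlapped a candidate region of both replicates by at least 1 bp. Only 8 overlapped a top 1000 region in both replicates, those of nhr-237, nhr-84, nhr-256, nhr-87, nhr-19, nhr-142, nhr-182 and nhr-50. A further 13 did so in replicate 1 alone, 5 in replicate 2 alone and 4 in neither. Of all 975 nuclear regions of the pooled top 1000, 908 overlapped a candidate region of both replicates, a share close to that of the member regions. A top 1000 region was overlapped by 173 in both replicates, 301 in replicate 1 alone, 221 in replicate 2 alone and 280 in neither. The pooled list was made from both replicates, so its top regions are not independent of either list.

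By gene and not by region, 5 further members had a top 1000 region in each replicate list. They were nhr-46, nhr-34, nhr-66, nhr-27 and nhr-8. None of them had a region in the top 1000 of the pooled list that was also in that of both replicates. At nhr-46, nhr-34 and nhr-66 the best regions of the replicates lay at different places. At nhr-8 the places in the replicates were not compared. At nhr-27 the pooled region of best rank, 1461, lay in an intron 79626 bp from the start and nearer to the start of pgp-12. It ranked 672 in replicate 1 and had no overlapping region in replicate 2.

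Large gaps went in both directions. The region of nhr-122 on IV from 1615891 to 1616220, in an intron, had signal 11.6 in replicate 1 (rank 14235) and 30.8 in replicate 2 (rank 69). The opposite held for the region 793 bp upstream of nhr-232 on V from 10255212 to 10255541, with signal 30.4 in replicate 1 (rank 163) and 7.88 in replicate 2 (rank 20496). The start nearest to that region is not that of nhr-232 but that of rop-1. The shared upstream region of nhr-42 and nhr-107 had ranks 372 and 19712, and that of nhr-202 had ranks 168 and 15423. At nhr-11 the intronic region on IV from 9070849 to 9071178 had ranks 160 and 2453. Over the 189 member regions with an overlapping region in both replicates, the ranks correlated with Spearman's rho of 0.24 and Pearson's r of 0.18. Over 10402 nuclear regions the values were 0.13 and 0.11. These correlations run across regions of the same 2 libraries and are given as a description.

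**Figure D2:**
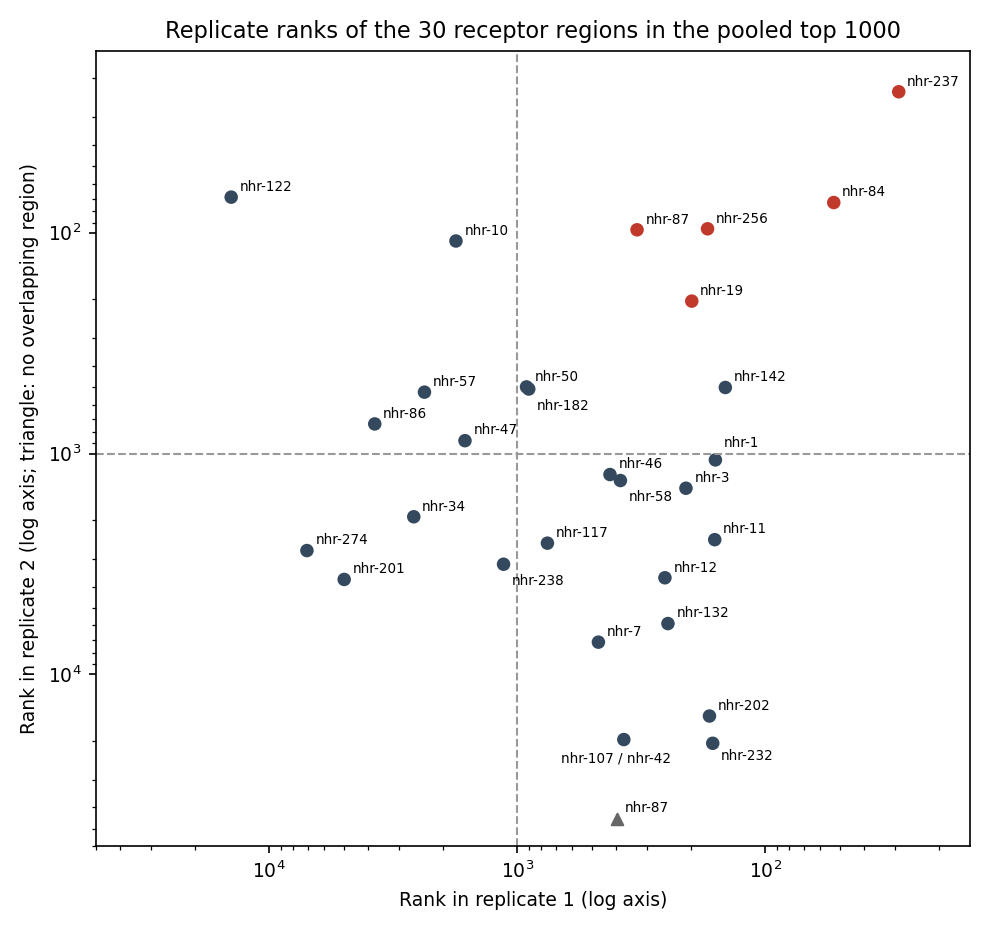
Each point is 1 of the 30 distinct member regions in the pooled top 1000, placed by the rank of the overlapping region in replicate 1 and in replicate 2 (both log axes, highest ranks at the top right); red points are thresholded peaks, the triangle is a region at nhr-87 with no overlapping region in replicate 2, and dashed lines are rank 1000. The 8 points in the upper right corner rank within the top 1000 of both replicates.

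Receptors with a known role in metabolism or stress were compared with those of moulting, development and the nervous system. The lists were written from general knowledge of the genes, with earlier results of these data known, and overlap in part. Of 12 receptors of metabolism and stress, 3 had a region in the pooled top 1000, 3 in that of replicate 1 and 5 in that of replicate 2. The shares over all nuclear genes were 5.58% in the pooled list, 5.58% in replicate 1 and 5.16% in replicate 2, and a list of 12 genes gives only a rough share. The members named here besides nhr-10 are nhr-86, nhr-57 and nhr-66. The upstream region of nhr-86, which takes part in sensing a bacterial phenazine, had pooled signal 38.1 on V from 2066867 to 2067196. Its replicate signals were 16.4 (rank 3755) and 18.9 (rank 734). The intronic region of nhr-57, a gene induced in low oxygen, had pooled signal 37.4 on V from 4132144 to 4132473, with replicate signals of 18.0 (rank 2367) and 20.05 (rank 527). All of nhr-10, nhr-86 and nhr-57 were in the top 1000 of replicate 2 and not in that of replicate 1. For nhr-66, a partner of NHR-49 in lipid metabolism, the best region was at rank 1073, in the 3' UTR and also inside serp-1.2.

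None of the 14 conserved receptors had a region in the pooled top 1000, and neither did any of 5 HNF4-like, 11 moulting and development or 5 neuronal receptors. The HNF4-like list holds 5 chosen genes only, not all members thought to descend from an HNF4-like ancestor. In the replicate lists alone, 1 conserved receptor had a top 1000 region in replicate 1 and 2 in replicate 2, 2 and 0 of the HNF4-like receptors did, and 0 and 2 of the moulting and development receptors. Such a count is limited by size, since 5.58% of 14 genes is less than 1 gene. Any region was found at 72.3% of all members, with a median best rank of 6296, and at 67.1% of all nuclear genes. Among conserved receptors 8 of 14 had one, with a median best rank of 6296.5. The best was in an intron of nhr-85, a relative of the fly and mammalian E75 and Rev-erb receptors, at rank 2571. The best region of daf-12, the steroid receptor of the dauer decision, was at rank 3955 in an intron, and daf-12 had a region of rank 646 in replicate 2 against a best rank of 7238 in replicate 1. For nhr-8, a relative of daf-12 with a role in cholesterol balance and toxin resistance, the best rank was 4865 in the pooled list, 982 in replicate 1 and 271 in replicate 2. Its best pooled region lay inside mrpl-1, so this place is shared with a neighbour. The best rank at nhr-41, a relative of the fly receptor DHR78, was 6047.

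Among the HNF4-like receptors, nhr-49, a regulator of fat use, had its best region at rank 2397, in a coding exon. It was at rank 272 in replicate 1, with no overlapping region in replicate 2. The best ranks of nhr-64, nhr-14, which acts in iron uptake, and nhr-69 were 3121, 4373 and 8881. At nhr-14 the replicates gave best ranks of 399 and 3991. In the moulting and development list, nhr-40 had best rank 5148, while nhr-25, a moulting and epidermis regulator, was at 14541. Its partner in moulting, nhr-23, had no region in the pooled list, and neither had sex-1, an X-linked signal of sex determination. Among neuronal receptors, odr-7, which specifies an olfactory neuron, had its best region at rank 6211. The best of nhr-67, a relative of fly tailless, was at rank 14381. Neither fax-1 nor unc-55, which act in interneurons and motor neurons, had a pooled region.

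Chromosome V carried 167 of the 274 members (60.9%), and 136 of these stood within 50 kb of another member's start and were counted as clustered. The clustered genes on V and the other members had similar shares in the pooled list. A top 1000 region was found at 14 of 136 clustered members (10.3%, 5.74 to 16.7%) and at 16 of the other 138 (11.6%, 6.77 to 18.1%). The difference was -1.30 percentage points, with a 95% interval of -8.89 to 6.30 (Newcombe's method), so differences of several points in either direction are within counting error. In replicate 1 the counts were 17 and 18 (12.5% and 13.04%). In replicate 2 they were 9 and 16 (6.62% and 11.6%), and in both replicates 4 and 9 (2.94% and 6.52%).

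Genes of V in general had fewer high regions than genes elsewhere. The share with a pooled top 1000 region was 4.43% of 4994 nuclear genes on V and 5.97% of those on other chromosomes. On V the background was 4.67% in replicate 1, 3.26% in replicate 2 and 1.02% in both replicates. Per length, the territory of clustered members held 25.8 top 1000 regions per Mb and that of the other members 18.4, against 7.94 for all genes on V. In replicate 1 the territories held 27.8 and 22.8 against 8.84, and in replicate 2 they held 19.9 and 19.5 against 6.42. The order of the 2 groups of members thus depended on whether genes or length were counted. The median best rank was 7318 for clustered members with a region and 4998 for the others. Thresholded peaks lay at 2 clustered members, nhr-237 and nhr-84, and at 3 others.

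**Figure D3:**
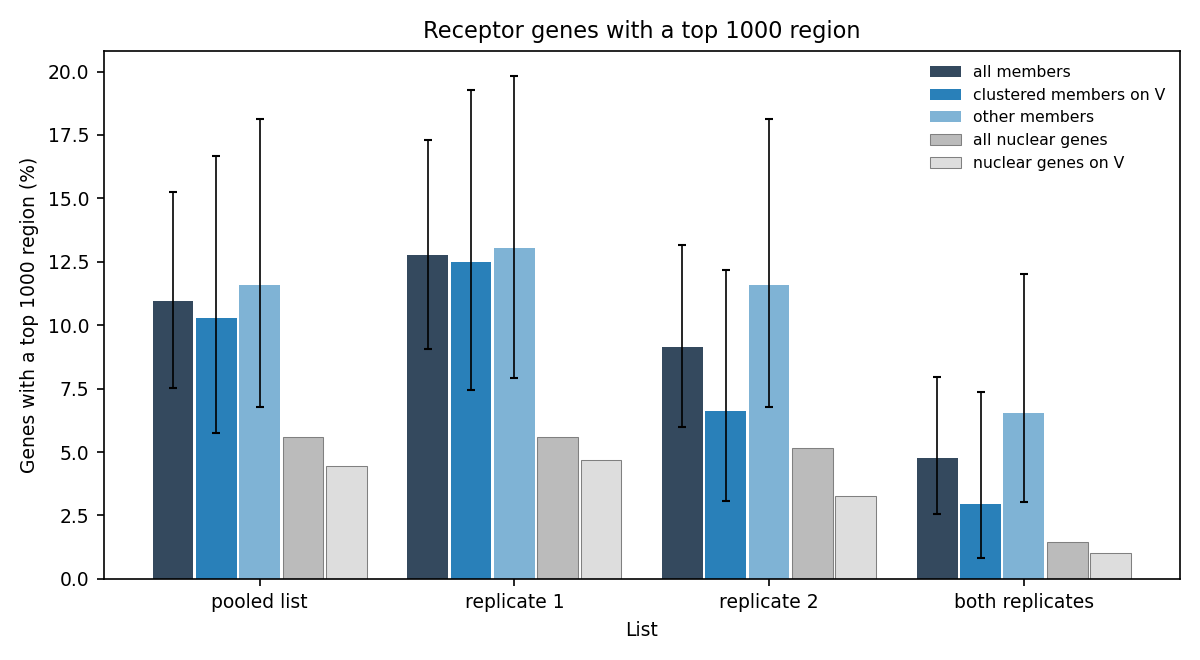
Bars give the percentage of genes with a top 1000 region in the pooled list, in each replicate list and in both replicate lists, for all 274 members, the 136 clustered members on V, the other 138 members, all nuclear protein-coding genes and those on V; error bars are exact 95% intervals. In each list the bar of all members is above both grey bars, and the intervals of clustered and other members overlap.

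The counts differed between arrays, each too small for a precise share. Over all genes on V, 4.43% had a pooled top 1000 region and 62.5% had any region. The array of 19 receptor genes on V from 392628 to 541485 had 4 members in the pooled top 1000, which were nhr-201, nhr-202, nhr-58 and nhr-132. Of that array, 5 members had a top 1000 region in replicate 1 and 0 in replicate 2. In the equally numerous array from 2192485 to 2296977, 1 member, nhr-182, had one, with 1 in replicate 1 and 2 in replicate 2. In a compact array of 7 genes from 1603906 to 1629432, all 7 had a region and 3 were in the top 1000, nhr-237, nhr-117 and nhr-238. In the replicate lists, 2 of its members had a top 1000 region in replicate 1 and 1 in replicate 2. The region of nhr-117 lay 216 bp upstream with pooled signal 43.3, with ranks 756 and 2544 in the replicates. An array of 10 genes from 3844429 to 3908452 had 7 members with a region and 0 in the top 1000, with a best rank of 3889. On IV, an array of 5 members from 1613892 to 1645298 had 3 in the top 1000, nhr-122, nhr-87 and nhr-274, with 2 in each replicate list, where 6.64% of all genes on IV had a pooled top 1000 region. The 24 members on I had 12 genes with a region, where 67.1% of all nuclear genes had one. Of the 24, 0 were in the pooled top 1000, against 7.16% of all genes on I, too few genes to set this count apart. In replicate 1, 1 of them had a top 1000 region, and in replicate 2, 0 did. These arrays and some of their members were named after their values had been seen.

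Upstream and intronic places were about equally frequent among member regions. Of 522 pairs of a member and a region, 209 (40.04%) had the summit upstream and 207 (39.7%) in an intron. Another 58 lay in coding exons, 18 in 5' UTRs, 12 in 3' UTRs, 3 in other exons and 15 past the end of a gene shorter than 2 kb. Upstream pairs were in the pooled top 1000 in 19 cases (9.09%, 5.56 to 13.8%) and intronic pairs in 10 (4.83%, 2.34 to 8.70%). The difference was 4.26 percentage points (-0.728 to 9.42, Newcombe's method), an interval that includes 0. Intervals over pairs treat the pairs as independent, although 1 gene can give several pairs and neighbouring members can share a region. In replicate 1 the shares were 9.95% upstream and 6.42% in introns, and in replicate 2 they were 6.07% and 5.02%. Over all nuclear genes the pooled shares were 5.59% upstream and 2.05% in introns, so the same order holds beyond the family.

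Members had higher shares than all genes at both places, and per length the values were 34.7 top 1000 pairs per Mb upstream against 18.6, and 17.9 in introns against 6.97. The median rank of upstream pairs was 13719 at members and 13700 over all genes in the pooled list. The medians of members were nearer the top in the replicate lists, with 11955 against 14029 in replicate 1 and 12555 against 14176 in replicate 2. In introns the pooled medians were 14102 and 15571.5. No coding exon of a member held a pooled top 1000 region, 0 of 58 pairs, which allows a share of up to 6.16% by the exact interval. Over all genes the share in coding exons was 0.935%. In the replicate lists, 2 of 56 coding-exon pairs of members were in the top 1000 in replicate 1 (3.57%, against 1.32% over all genes) and 1 of 56 in replicate 2 (1.79%, against 0.934%). Among 5' UTR pairs 2 of 18 were in the top 1000, those of nhr-50 and nhr-132, against 5.43% over all genes.

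**Figure D4:**
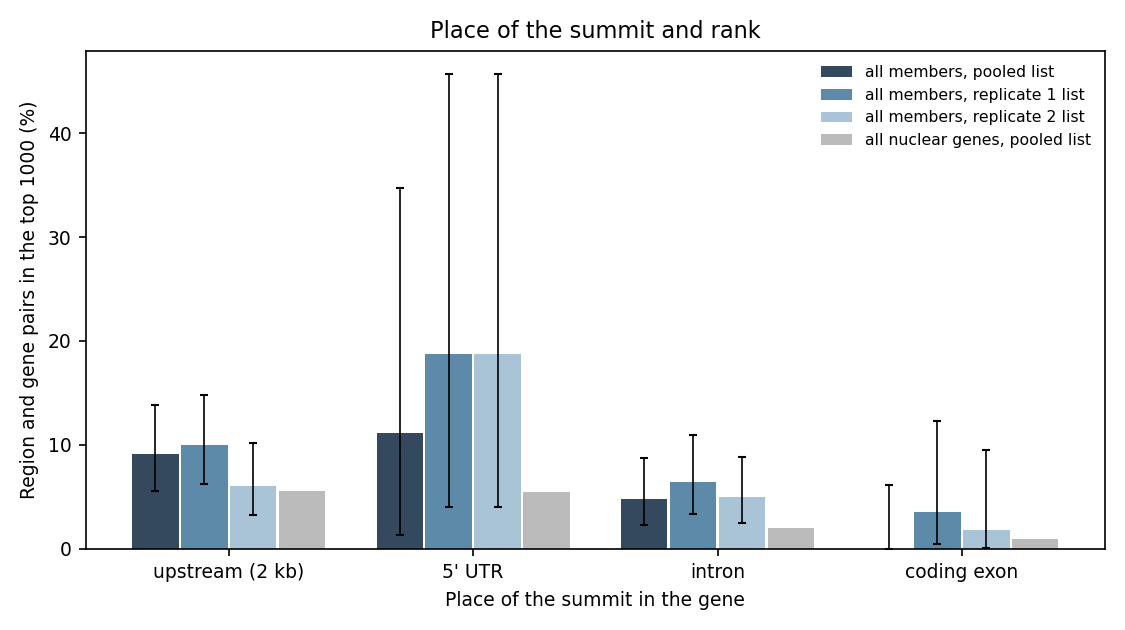
Bars give the percentage of pairs of a gene and a region in the top 1000, by the place of the summit, for members in the pooled list and in each replicate list and for all nuclear genes in the pooled list; error bars on the members are exact 95% intervals. Upstream bars of the members are above the intronic bars in each list, with overlapping intervals, and the 5' UTR bars rest on 16 to 18 pairs.

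The gene of the tagged receptor itself had no candidate region in any of the 3 lists. Within 20 kb of nhr-28, which lies on X from 16354976 to 16359650, the pooled list held 1 region, with its summit 18.9 kb upstream of the start, signal 16.2 and rank 17376. Replicate 1 held 1 at nearly the same place, with rank 25909, and replicate 2 held 0. The same window around a nuclear gene held a median of 12 regions in each list, and 13 for genes on X. Only 2.73% of nuclear genes had as few in the pooled list, 1.17% in replicate 1 and 0.501% in replicate 2. The stretch without a summit around the start of nhr-28 was 61.6 kb long in the pooled list, 51.5 kb in replicate 1 and 63.1 kb in replicate 2. The medians over all genes were 6.24, 5.73 and 5.67 kb, and a stretch as long was found at 1.91%, 0.916% and 0.601% of genes. The strain of the control and the extent of the insertion are unknown from the labels and files used, and their part in this value was not tested.

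**Figure D5:**
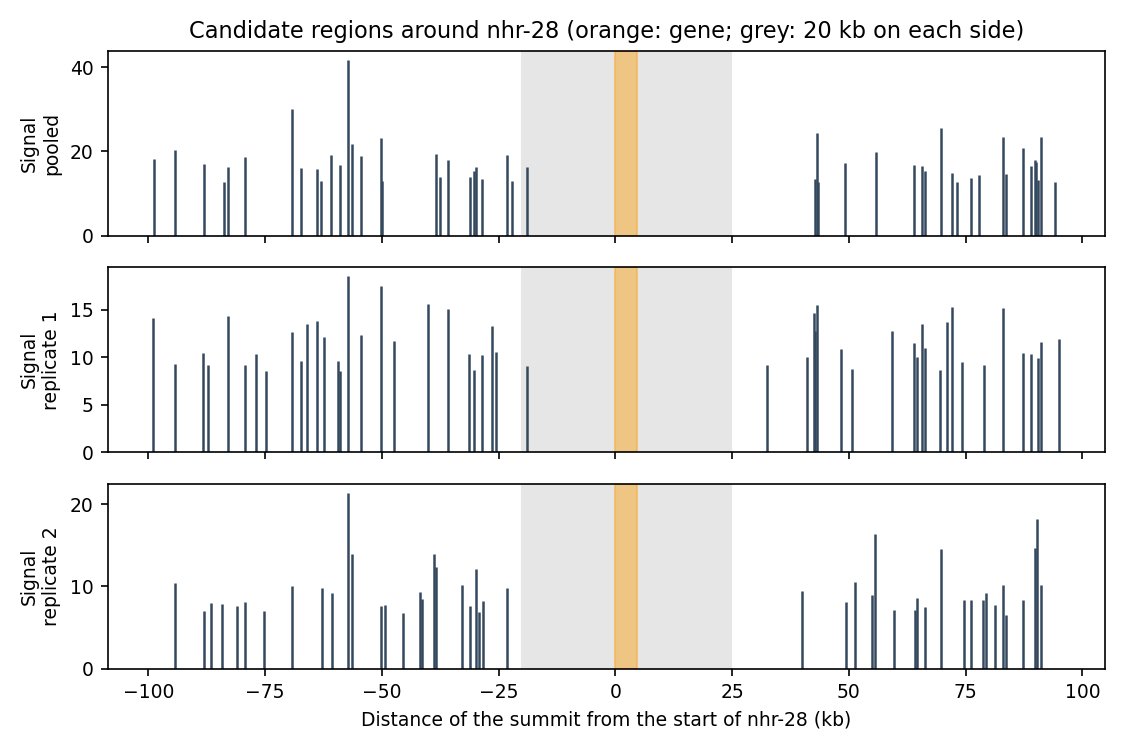
Vertical lines are candidate regions within 100 kb of the start of nhr-28, placed by the distance of the summit from the start in kb and drawn to their signal, in the pooled list and in each replicate; orange is the gene and grey 20 kb on each side. The stretch around the gene is empty but for 1 region near the left edge of the grey area in the pooled list and in replicate 1.

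The receptor elements were about as common at member regions as at other candidate regions. In windows of 200 bp centred on the summit, searched on both strands, AGGTCA was found in 21 of 492 member regions (4.27%) and in 3.96% of all 29975 nuclear regions. AGTTCA was found in 12.4% against 11.8%, and GGGTCA in 2.24% of both. Any of the 3 was found in 18.3% against 17.2%. Within the pooled top 1000, 6 of the 30 member regions and 170 of 975 nuclear regions (17.4%) held any of the 3. GAGAGA was found in 61 member regions (12.4%) against 9.52% of all. In the top 1000 it was found in 10 of 30 member regions and in 225 of 975 nuclear regions (23.1%). In windows of 100 bp this contrast was absent, with 4 of 30 (13.3%) against 13.5%, and in windows of 400 bp the counts were 15 of 30 and 33.6%. The 10 member regions found with windows of 200 bp included those of nhr-237, nhr-256 and nhr-19. The others were at nhr-47, nhr-117, nhr-3, nhr-132, nhr-46 and nhr-58, with a second region of nhr-87. The median GC content of the windows was 31.0% at members and 30% over all nuclear regions. In the top 1000 it was 35.5% and 31.5%. In windows of 100 bp, where the GAGAGA contrast was absent, the top 1000 medians were 33.5% and 31.0%. The part of GC content in the GAGAGA share was not tested.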

How the data were processed

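The authors' deposited lists of ChIP-seq regions in build ce11 were used, with the signal of each region in column 7. Per the deposited file listing, candidate lists of 30000 regions came from the alignment of 1 replicate set against a control, and the pooled list from both alignments and that control. The thresholded list of 159 peaks came from these by the irreproducible discovery rate. Which aligner and peak caller were used, and how deep the libraries are, is not given in the sources used here, so depth is unknown. The signal ranks regions within a list only.

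Genes were taken from Ensembl release 115 (WBcel235, the same assembly as ce11), and no region reached past a chromosome end. Each list was ranked by signal. A replicate region was matched to a pooled region by an overlap of at least 1 bp, and the match of best rank was used. Sequences were read from the RefSeq copy of WBcel235. Shares were given exact 95% binomial intervals (SciPy 1.17.1) and differences Newcombe intervals (statsmodels 0.14.6). No test was run, because the design has 1 group. The assignment code was tested on simulated data.

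The members and lists were chosen with earlier results of these data known. Genes were named if they had a thresholded peak, were among the 12 best-ranked members, had a top 1000 region in both replicate lists, led one of the 5 lists (up to 4 each), were among the 3 with the largest gap between replicate ranks of a region in the pooled top 1000, or were nhr-28. Other members were named after their values had been seen. Of the 13 members with a top 1000 region in both lists, nhr-46, nhr-34, nhr-66, nhr-27 and nhr-8 lacked a region shared by the top 1000 of the pooled list and of both replicates. The ce10 lists were not used here.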

Additional observations from a re-analysis of the deposited data

How the results depend on the processing

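The count of 30 members with a pooled top 1000 region (10.9%, against 5.58% of all genes) stayed within 1.5 times under each setting tried. It was 25 from replicate 2 alone and 35 from replicate 1 alone. A count rises with the cut-off, so the shares matter more. With the top 500 it was 23 members (8.39%, against 2.94% of all genes), and with the top 2000 it was 43 (15.7%, against 10.1%). Relative to all genes, the members' share was thus highest with the top 500 and lowest with the top 2000. The count was 26 with 1 kb in place of 2 kb (9.49%, against 4.15% of all genes). It was 25 with the nearest start only (9.12%, against 3.08%) and 20 within 1 kb of the start only (7.30%, against 3.09%). The 5 members with a thresholded peak became 3 within 1 kb of the start only (0.501% of all genes) and 3 with signal above the median of the thresholded list (0.355%). The 13 members with a top 1000 region in both replicates became 6 within 1 kb of the start only (0.711% of all genes), 8 by the nearest start (0.646%), 5 with the top 500 (0.771%) and 20 with the top 2000 (3.07%). They became 8 when the same region had to be in the top 1000 of the pooled list and of both replicates (1.13%), a setting chosen after seeing the data.

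The differences between clustered and other members, between upstream and intronic regions, in motif shares between members and all regions (windows of 100 and 400 bp), and the rank correlation, stayed inside the interval of the value reported. The GAGAGA share of the top 1000 member regions fell from 33.3% to 13.3% in windows of 100 bp, against 13.5% of all top 1000 regions. With all members on V as 1 group, the first was 1.10 percentage points in favour of V. The difference of upstream and intronic pairs ranged from 1.05 to 3.54 points in the replicates alone. It was 7.46 points with 1 kb upstream (1.40 to 14.8) and 6.18 points (0.681 to 12.2) without regions inside another gene. These intervals treat pairs as independent, although 1 gene can give several pairs, so they are not read as a test. Best ranks of named genes crossed rank 1000 in 24 of 102 comparisons with another setting. No paired analysis was possible because there is 1 group. With unknown depth, ranks below the thresholded peaks cannot be given an error, and absence from a list is not absence of binding.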
